A study of Drosophila melanogaster with 2 samples.

Results

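The proteasome subunit genes of the fruit fly Drosophila melanogaster were followed on 2 two-colour microarrays that compared larvae with a B52 transgene with control larvae. Members were the probes with exactly 1 annotated gene symbol whose current symbol begins with Prosalpha or Prosbeta, or with Rpn or Rpt and a number. This gave 44 probes of 41 genes, of 12236 genes with such a probe. A value on both arrays was present for 39 probes of 37 genes, of 10584 genes measured on both arrays. The other 4 genes had a value on 1 array. RefSeq lists 48 genes of this name pattern, and 7 of them (Prosbeta1, Rpn9, Rpn10, Rpn12R, Rpt1, Rpt6 and Rpt6R) were not analysed here.

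Control larvae were the GMR X GFP-NLS cross, with green fluorescent protein sent to the nucleus, and the other larvae the GMR X GFP-B52 cross, with a fusion of green fluorescent protein and the SR splicing factor B52. GMR, common to both crosses, is in fly genetics a promoter of the developing eye, and the labels name larvae as the source, without their age, a dissected tissue or the number pooled. The question was whether raised B52 alters the expression of other genes. On replicate 1 the B52 RNA carried Cy5 and the control RNA Cy3, and on replicate 2 the dyes were exchanged. Of the 4 RNAs hybridised, 3 were labelled polyA and the control RNA on replicate 1 cytoplasmic. By these labels, the cross and the kind of RNA cannot be told apart on replicate 1. Nothing states that the arrays held separate extracts, so every p-value below measures only the spread between 2 arrays, which may be technical.

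The proteasome is the protease that degrades proteins tagged with ubiquitin. Its core particle is a barrel of outer alpha rings, which gate the entrance, and inner beta rings, which hold the cutting sites. The regulatory particle caps the barrel: its Rpt subunits are ATPases that unfold the substrate, and its Rpn subunits bind ubiquitin, remove it or hold the particle together. Flies also have duplicate subunit genes with a T or R in the symbol, several of them known for expression in the testis, and these are called testis-type below. The genes with a probe comprised 24 of the core and 17 of the regulatory particle, and 14 of the 41 were testis-type.

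The deposited values are log ratios whose log base and direction are not stated, so B52 over control was read in 2 ways. Their mirror images, control over B52 or Cy3 over Cy5, were not used and would reverse every direction given by a reading below. In the kept-sign reading the deposited sign is kept on both arrays, as B52 over control. The turned-sign reading assumes Cy5 over Cy3 and therefore multiplies replicate 2 by -1. A gene with like deposited signs on both arrays therefore has a steady direction in the kept-sign reading. A gene with opposite signs has it in the turned-sign reading. In whichever reading is wrong, a steady sign would follow the dye and not the B52 RNA, which was not tested. Array values below carry the deposited sign, and a ± is the SD of the 2 arrays.

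As a check of the series, B52 itself, with 5 probes, averaged -0.136 on replicate 1 and 0.0424 on replicate 2, and its mean was below 0 in both readings (-0.0468 and -0.0892). The medians over all genes were 0.001 and 0.014. Row order was taken to give 48 print blocks of equal size, and the block medians ran from -0.0815 to 0.086 on replicate 1 and from -0.147 to 0.182 on replicate 2. They had the same sign on both arrays in 38 blocks, with Pearson's r = 0.823 over the 48 blocks as a description. Such an offset adds up in the kept-sign reading and cancels in part in the turned-sign reading, so member values were also taken with the block medians removed.

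Log ratios of the proteasome genes between B52 and control larvae were mostly small, and none passed the test. The 27 subunits that were not testis-type lay close to 0, with median absolute values of 0.052 and 0.053 on replicates 1 and 2, against 0.093 and 0.108 over all genes. Of these 27, 20 had a positive value on replicate 1, against 5297 of all 10584 genes. On replicate 2, 21 had a negative value, against 4889 of all 10584 genes. Read with the sign turned, 16 of the 27 genes had a small positive value on both arrays, 59.3%, where 21.9% of all genes were positive on both. By that reading 2 of the 27 were negative on both arrays, 7.41%, against 25.6% of all genes. Prosalpha1R and Rpt4R, counted here as testis-type for the plain R in their symbols, were also negative on both. Their turned-sign median was 0.0365 ± 0.00354 (SD of the array medians, n = 2 arrays), beside -0.0075 over all genes, which is 1.09-fold on a log10 scale and 1.03-fold on a log2 scale. With the block medians removed, 14 of the 27 were positive on both arrays, against 24.8% of all genes. They were not all among the 16, as several genes changed sign on an array.

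In the kept-sign reading the same 27 genes showed no lean. There 4 were positive on both arrays (14.8%, against 28.1% of all genes), 5 were negative (18.5%, against 24.3%), and the median was 0.003 ± 0.0431 (SD of the array medians, n = 2 arrays). Since a gene can hold its sign in only 1 of the readings, the counts of both readings come from the same pair of values. The direction stays with the reading chosen. By the unused mirror image Cy3 over Cy5, where B52 itself is positive on both arrays, the lean of the turned-sign reading would be negative.

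By limma, 0 of the 39 member probes passed an adjusted p of 0.05 in either reading, as did 0% of all 12500 probes. At an unadjusted p under 0.05 limma had 3 of the 39 probes in each reading, 7.69%, beside 6.52% of all probes in the kept-sign reading and 6% in the turned-sign reading, a share near that of all probes. With probes averaged to genes limma had 3 of 37 genes at that unadjusted p in the kept-sign reading, beside 6.59% of all genes, and 2 of 37 in the turned-sign one, beside 5.49%. An ordinary one-sample test and limma with robust variance also called 0 member probes in both readings, and each had 3 at an unadjusted p under 0.05.

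**Figure D1:**
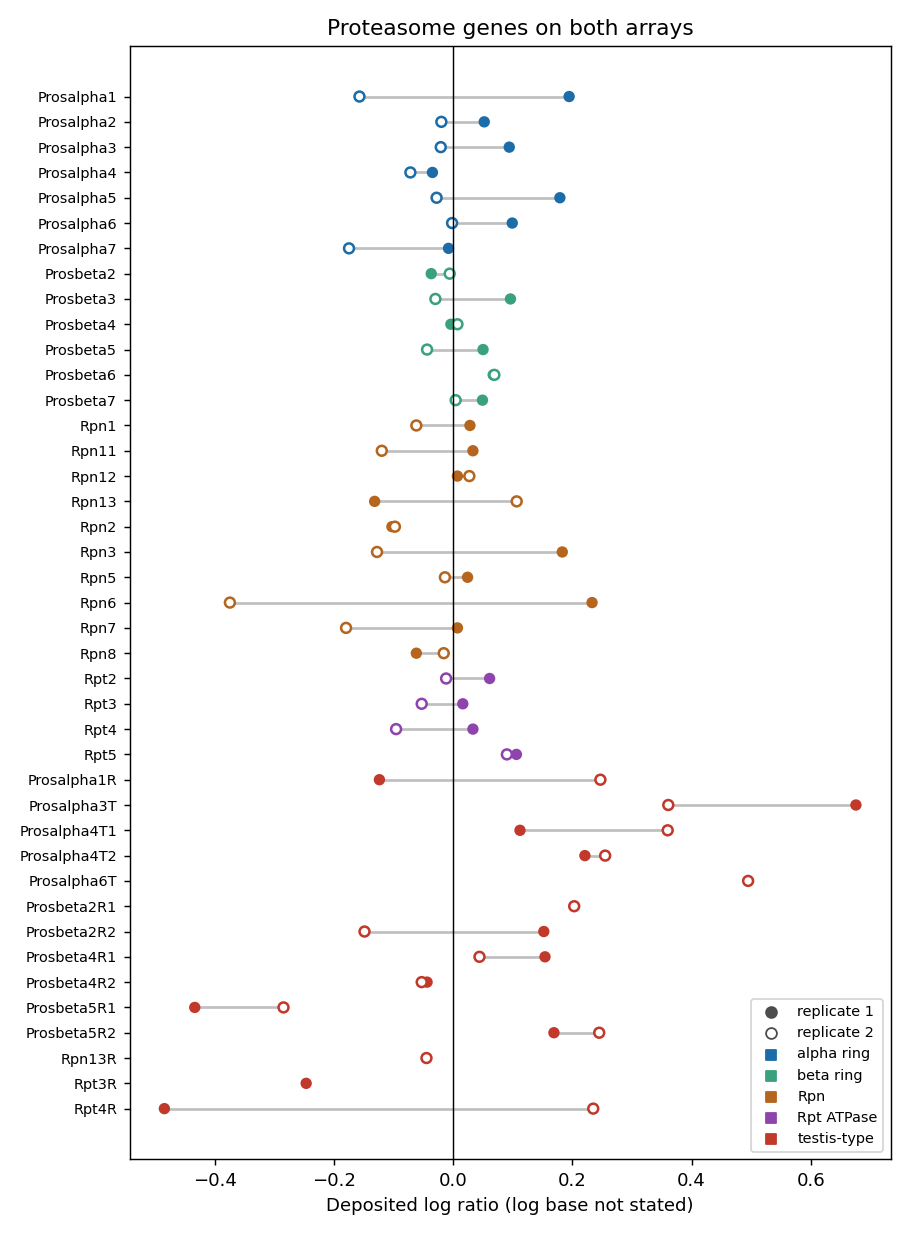
Deposited log ratio (horizontal axis, log base not stated) of each of the 41 proteasome genes on replicate 1 (filled) and replicate 2 (open), coloured by family, with a grey line joining the arrays. The 7 alpha-ring genes that are not testis-type lie below 0 on replicate 2, where 4889 of all 10584 genes were negative. Testis-type genes spread from -0.485 to 0.676.

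All 7 alpha-ring subunits that were not testis-type were measured. All 7 had a negative deposited value on replicate 2, as had 4889 of all 10584 genes. With block medians subtracted, Prosalpha2 had 0.024 and Prosalpha5 0.096 there, and the others stayed negative. Prosalpha1, with 2 probes, averaged 0.1945 on replicate 1 and -0.1575 on replicate 2, and its probes had the same sign on each array. Prosalpha5 had 0.179 and -0.028, and Prosalpha6 had 0.099 and -0.002. These values are positive on both arrays in the turned-sign reading, with means of 0.176 ± 0.0262 for Prosalpha1, 0.103 ± 0.107 for Prosalpha5 and 0.0505 ± 0.0686 for Prosalpha6 (SD, n = 2 arrays).

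Prosalpha3, whose yeast counterpart has the tail that closes the gate, had 0.094 and -0.021. Prosalpha2 had 0.052 on replicate 1 and -0.02 on replicate 2. So 5 of the 7 alpha genes were positive on both arrays in the turned-sign reading (71.4%, against 21.9% of all genes). The remaining alpha genes were negative on each array: Prosalpha4 had -0.035 and -0.072, and Prosalpha7 had -0.008 and -0.175. Their kept-sign means were -0.0535 ± 0.0262 and -0.0915 ± 0.118 (SD, n = 2 arrays). With block medians subtracted, Prosalpha2 and Prosalpha5 were no longer positive on both arrays in the turned-sign reading. Prosalpha7, then with 0.037 and -0.028, became so. The alpha-ring median was 0.0575 ± 0.0467 in the turned-sign reading and 0.0185 ± 0.0863 in the kept-sign reading, where the arrays had 0.094 and -0.028.

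Beta-ring genes that were not testis-type ranged from -0.037 to 0.096 on replicate 1 and from -0.044 to 0.069 on replicate 2. Prosbeta5, the chymotrypsin-like protease of the core, had 0.05 and -0.044, a turned-sign mean of 0.047 ± 0.00424 (SD, n = 2 arrays). Prosbeta2, the trypsin-like protease, had -0.037 on replicate 1 and -0.006 on replicate 2. These catalytic subunits lay on opposite sides of 0 on replicate 1, and Prosbeta1, also catalytic, was not analysed here.

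Among the beta subunits with no protease activity, Prosbeta3 had 0.096 and -0.03, and Prosbeta7 had 0.049 and 0.004. Prosbeta6, known from the dominant temperature-sensitive allele DTS5, had 0.067 and 0.069, the closest match between arrays of all members, with a kept-sign mean of 0.068 ± 0.00141 (SD, n = 2 arrays). Prosbeta4 had -0.004 and 0.007. The beta-ring median was near that of all genes in both readings, 0.0148 against 0.0085 in the kept-sign reading and 0.0107 against -0.0075 in the turned-sign reading.

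Averaged per gene, the largest value among subunits that were not testis-type was in the regulatory particle. Rpn6, which clamps the regulatory particle onto the core, had 0.233 on replicate 1 and -0.375 on replicate 2. This was the widest opposite-sign separation among the 27 genes, and its turned-sign mean of 0.304 ± 0.1 (SD, n = 2 arrays) had a limma adjusted p of 0.643. It corresponds to 2.01-fold on a log10 scale and 1.23-fold on a log2 scale. A further Rpn6 probe had no value on either array. With its block medians subtracted, the measured probe had 0.278 and -0.228.

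Rpn3, a structural subunit of the lid, the outer part of the regulatory particle, had 0.183 and -0.128 and a turned-sign mean of 0.155 ± 0.0389 (SD, n = 2 arrays). The lid subunits Rpn7, with 0.007 and -0.18, and Rpn5, with 0.024 and -0.014, had the same pattern of signs. Rpn11, the deubiquitinase that cuts ubiquitin chains from the substrate, had 0.033 on replicate 1 and -0.12 on replicate 2. Rpn1, which docks carriers of ubiquitinated proteins, had 0.028 and -0.062. Each of these 5 genes and Rpn6 was positive on both arrays in the turned-sign reading. This makes 6 of 10 Rpn genes that were not testis-type (60%, against 21.9% of all genes). With block medians subtracted, Rpn1 (0.084 and 0.073) and Rpn7 (-0.039 and -0.293) had like signs instead. Rpn12, then with 0.006 and -0.048, became positive on both arrays in the turned-sign reading.

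Other Rpn genes went elsewhere. Rpn2, a scaffold of the base, the part next to the core, had -0.103 and -0.098, a kept-sign mean of -0.101 ± 0.00354 (SD, n = 2 arrays). Rpn8, the partner of Rpn11, had -0.062 on replicate 1 and -0.016 on replicate 2. Rpn12 had 0.007 and 0.027. Rpn2 and Rpn8 were thus negative on both arrays, and Rpn12 was near 0.

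Rpn13, a ubiquitin receptor, had probes that disagreed. One probe had -0.436 on replicate 1 and 0.15 on replicate 2, and its turned-sign mean of -0.293 had a limma adjusted p of 0.763. The other had 0.172 and 0.063. They lie on opposite sides of 0 on replicate 1, so the gene mean of -0.119 ± 0.018 (SD, n = 2 arrays) in the turned-sign reading does not describe either probe.

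All 4 measured ATPase genes that were not testis-type had positive values on replicate 1, as had 5297 of all 10584 genes. Rpt4 had 0.033 on replicate 1 and -0.096 on replicate 2, Rpt2 had 0.061 and -0.012, and Rpt3 had 0.016 and -0.053. These 3 were positive on both arrays in the turned-sign reading (75%, against 21.9% of all genes), with means from 0.0345 to 0.0645. Rpt5 differed, with 0.106 and 0.09, positive on both arrays in the kept-sign reading, where its mean was 0.098 ± 0.0113 (SD, n = 2 arrays). With block medians subtracted this was reversed. Rpt5 then had 0.082 and -0.061, while Rpt2, Rpt3 and Rpt4 each had like signs on both arrays.

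**Figure D2:**
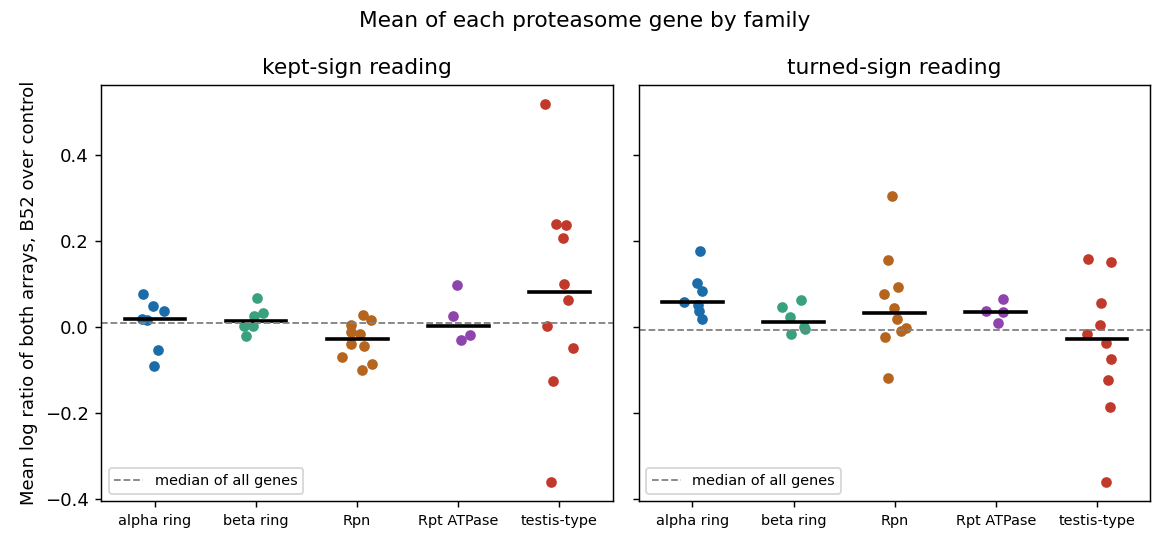
Mean log ratio of both arrays (vertical axis, B52 over control) of each proteasome gene by family, in the kept-sign reading (left) and the turned-sign reading (right); bars are family medians and the dashed line is the median of all genes. The alpha-ring, Rpn and Rpt medians of the turned-sign reading are 0.0575, 0.032 and 0.0355, and the testis-type points are the most spread in both panels.

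The core and the regulatory particle were then set against each other. The core had 22 measured genes, whose medians were 0.0805 on replicate 1 and -0.013 on replicate 2. The regulatory particle had 15, whose medians were 0.024 and -0.053. The core median was the higher by 0.0565 on replicate 1 and by 0.04 on replicate 2. Kept in sign, the difference was 0.0483 ± 0.0117 (SD, n = 2 arrays; exact two-sided sign permutation p = 0.5, the smallest that 2 arrays can give). Most testis-type genes measured were core genes, 9 of 10, and without them the kept-sign difference was 0.0312 ± 0.00742. Turned in sign on replicate 2, the arrays pointed opposite ways, with a mean difference of 0.00825 ± 0.0682 (SD, n = 2 arrays; exact two-sided sign permutation p = 1). A difference between the particles was therefore not shown.

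Testis-type genes had larger values than the rest. Their median absolute values were 0.162 and 0.246 on replicates 1 and 2, against 0.052 and 0.053 for the other subunits. The SD over genes was 0.336 and 0.224, against 0.0866 and 0.0974 for the other subunits and 0.18 and 0.19 over all genes. Of the 14 testis-type genes, 4 lacked a value on an array (28.6%), as did 0 of 27 other subunits and 13.5% of all genes. The table holds no spot intensities, so how bright these probes were is not known.

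With signs kept, 5 of 10 measured testis-type genes were positive on both arrays (50%, against 28.1% of all genes), and 2 were negative (20%, against 24.3%). Prosalpha3T had 0.676 on replicate 1 and 0.361 on replicate 2. It alone among the 37 genes reached 0.301, 2-fold on a log10 scale, with like sign on both arrays, a size reached by 0.718% of all genes upward and 0.425% downward. With its block medians subtracted, Prosalpha3T had 0.633 on replicate 1 and 0.22 on replicate 2, the latter below 0.301. Its kept-sign mean of 0.52 ± 0.22 (SD, n = 2 arrays) had a limma adjusted p of 0.705. By the turned-sign reading 0 members reached this size, where 1.13% of all genes did so upward and 0.189% downward.

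The duplicates of the gene Prosalpha4 lay on the same side as Prosalpha3T. Prosalpha4T2 had 0.221 and 0.255, with a kept-sign mean of 0.238 ± 0.024 (SD, n = 2 arrays; limma adjusted p = 0.75). Prosalpha4T1 had 0.112 on replicate 1 and 0.36 on replicate 2. Both were positive on each array, whereas Prosalpha4 itself was negative on each. Prosalpha6T, measured on replicate 2 alone, had 0.495.

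Duplicates of beta subunits went both ways. Prosbeta5R1 had -0.434 on replicate 1 and -0.285 on replicate 2, the lowest kept-sign mean of all members at -0.359 ± 0.105 (SD, n = 2 arrays; limma adjusted p = 0.713). Prosbeta5R2, a duplicate of the same subunit, had 0.169 and 0.245, a mean of 0.207 ± 0.0537 in that reading. The duplicates of the chymotrypsin-like subunit thus had opposite signs on both arrays, while Prosbeta5 had 0.05 and -0.044.

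The neighbouring genes Prosbeta4R1 and Prosbeta4R2, with 1 gene between them in the RefSeq order, also differed. Prosbeta4R1 had 0.154 and 0.044, and Prosbeta4R2 had -0.044 and -0.053. With block medians subtracted, Prosbeta4R1 had 0.114 and 0.003, and Prosbeta4R2 had -0.003 and 0.061. For the trypsin-like subunit, Prosbeta2R2 had 0.152 on replicate 1 and -0.149 on replicate 2, a turned-sign mean of 0.15 ± 0.00212 (SD, n = 2 arrays). Prosbeta2R1 had 0.203 on replicate 2 alone. Prosbeta2R2 was the single testis-type gene of the 10 that was positive on both arrays in the turned-sign reading.

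Prosalpha1R, likewise 1 gene away from Prosalpha1, had -0.124 on replicate 1 and 0.247 on replicate 2. Each array gave it the opposite sign of Prosalpha1, and its turned-sign mean was -0.185 ± 0.087 (SD, n = 2 arrays). Whether a probe of one copy also bound RNA of the other was not tested, as the probe sequences were not used here.

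Duplicates of the regulatory particle were rarely measured on both arrays. Rpt4R had -0.485 on replicate 1 and 0.235 on replicate 2, the lowest turned-sign mean of all members at -0.36 ± 0.177 (SD, n = 2 arrays; limma adjusted p = 0.584). Its parent type, Rpt4, had 0.033 and -0.096, again with the opposite sign on each array. Rpt3R had -0.247 on replicate 1 alone and Rpn13R -0.045 on replicate 2 alone.

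The testis-type median exceeded that of the other subunits by 0.099 on replicate 1 and by 0.268 on replicate 2. The kept-sign difference was 0.183 ± 0.12 (SD, n = 2 arrays; exact two-sided sign permutation p = 0.5, the smallest possible). It was 0.103 with block medians removed and 0.0861 with the mean over genes in place of the median. The turned-sign differences had opposite signs on the arrays, with a mean of -0.0845 ± 0.26 (SD, n = 2 arrays; exact two-sided sign permutation p = 1). Symbols ending in a plain R (Prosalpha1R, Rpn13R, Rpt3R and Rpt4R) were counted as testis-type here. Placed with the other subunits instead, they left differences of 0.143 in the kept-sign and -0.0227 in the turned-sign reading. Prosalpha1R and Rpt4R would then join the other subunits as genes negative on both arrays in the turned-sign reading. Rpn13R and Rpt3R lacked a value on an array, so the 28.6% of testis-type genes with a missing value also depends on this choice. A difference between the classes was not shown in either reading.

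**Figure D3:**
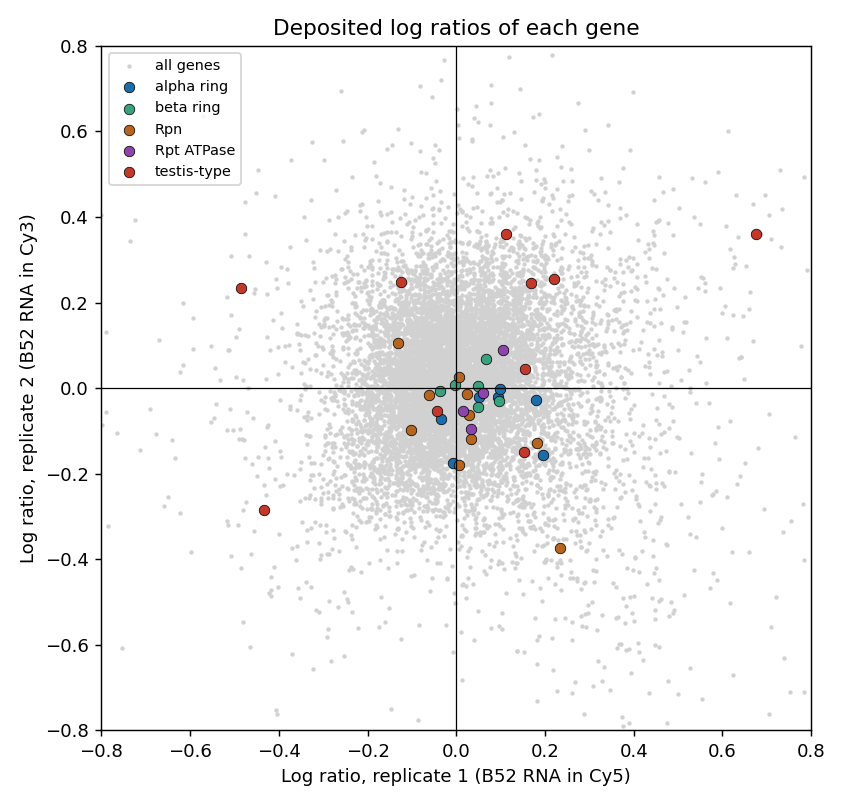
Log ratio on replicate 1 (horizontal) against replicate 2 (vertical) for all genes measured on both arrays (grey; 75 lie outside the plotted range) and for the proteasome genes by family. Most subunits that are not testis-type lie near the centre and to its lower right, and 5 testis-type genes lie in the upper right.

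Testis genes were measured beside the testis-type subunits. A list of 48 names taken as testis and spermatogenesis genes matched 41 genes with a probe, of which 28 were measured on both arrays. Not every gene on it is particular to the testis. Of the list, 31.7% of genes lacked a value on an array, beside 28.6% of the testis-type genes with symbols in plain R included. Its median absolute values were 0.158 and 0.127 on replicates 1 and 2, and its SD over genes was 0.213 and 0.181. With signs kept, 12 of these 28 were positive on both (42.9%, against 28.1% of all genes), and 5 were negative (17.9%, against 24.3%). Neither this list nor the ubiquitin list below was taken with block medians removed. The part of print-block offsets in their kept-sign shares was not tested. The list medians were 0.101 on replicate 1 and 0.0175 on replicate 2, with ranges of -0.482 to 0.391 and -0.229 to 0.533. The part of this in the testis-type values was not tested. In bulk RNA, more cells of a type and more RNA per cell cannot be told apart.

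Of that list, Mst98Ca had 0.224 on replicate 1 and 0.219 on replicate 2, and S-Lap5, a leucyl aminopeptidase of sperm, had 0.186 and 0.533. Mst57Dc, a male-specific transcript that is not particular to the testis, had 0.369 and 0.397. It was the 1 gene of the list to reach 0.301 with like sign on both arrays. The protamine genes ProtA, with -0.321 and -0.175, and ProtB, with -0.482 and -0.118, were negative on both arrays, as was tomb, a regulator of meiotic arrest genes, with -0.193 and -0.041. With replicate 2 turned, 7 of the 28 were positive on both arrays (25%, against 21.9% of all genes), and 4 were negative (14.3%, against 25.6%). There Mst84Dc had a mean of 0.254 ± 0.0354, S-Lap7 of 0.182 ± 0.00495 and Mst87F of 0.172 ± 0.0127 (SD, n = 2 arrays), while bam had -0.183 ± 0.142, achi -0.0855 ± 0.0205 and mia -0.1 ± 0.075. Limma called 0 genes of the list in either reading, with 6 of 28 at an unadjusted p under 0.05 in the kept-sign reading (21.4%, against 6.59% of all genes), 4 higher and 2 lower, and 1 in the turned-sign reading (3.57%, against 5.49%).

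Genes that act with the proteasome were described from a list of 69 names, covering ubiquitin, its conjugating enzymes and ligases, deubiquitinases, substrate carriers and the transcription factor cnc with its partners. Of these, 55 were measured on both arrays, and their medians were 0.013 and 0.008 on replicates 1 and 2. Read with the sign turned, 18 were positive on both arrays (32.7%, against 21.9% of all genes), and 17 were negative (30.9%, against 25.6%). Read with signs kept, 11 were positive on both (20%, against 28.1%), and 9 were negative (16.4%, against 24.3%). Limma called 0 of the 55 in either reading, with 2 at an unadjusted p under 0.05 in the kept-sign reading (3.64%, against 6.59% of all genes) and 3 in the turned-sign reading (5.45%, against 5.49%). The lean toward positive turned-sign values of the 27 subunits stood beside like numbers in each direction in this list.

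Cul3, the scaffold of a family of ubiquitin ligases, had 0.262 on replicate 1 and -0.28 on replicate 2, a turned-sign mean of 0.271 ± 0.0127 (SD, n = 2 arrays). TER94, the ATPase that extracts ubiquitinated proteins for the proteasome, had 0.421 and -0.185. The gene cnc, whose long protein form is known to activate proteasome genes in flies, averaged 0.4803 on replicate 1 and -0.1955 on replicate 2. Its 4 probes disagreed, from -0.069 to 0.736 on replicate 1 and from -0.392 to 0.187 on replicate 2.

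In the opposite direction of the turned-sign reading lay Keap1, which holds the cnc protein in check, with -0.115 and 0.09. REG, which codes for an activator that caps the core, had -0.071 and 0.092, and mr, a subunit of the anaphase-promoting complex, had -0.085 and 0.102. In the kept-sign reading maf-S, the DNA-binding partner of cnc, had -0.16 and -0.548, with Cdc27 at -0.14 and -0.062 and fzr at -0.054 and -0.036 also negative on both arrays. Positive on both there were Roc1b with 0.246 and 0.202, Usp7 with 0.148 and 0.265, and APC7 with 0.067 and 0.059. These genes were named for holding their sign in the reading given, so the signs themselves are no result.

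**Figure D4:**
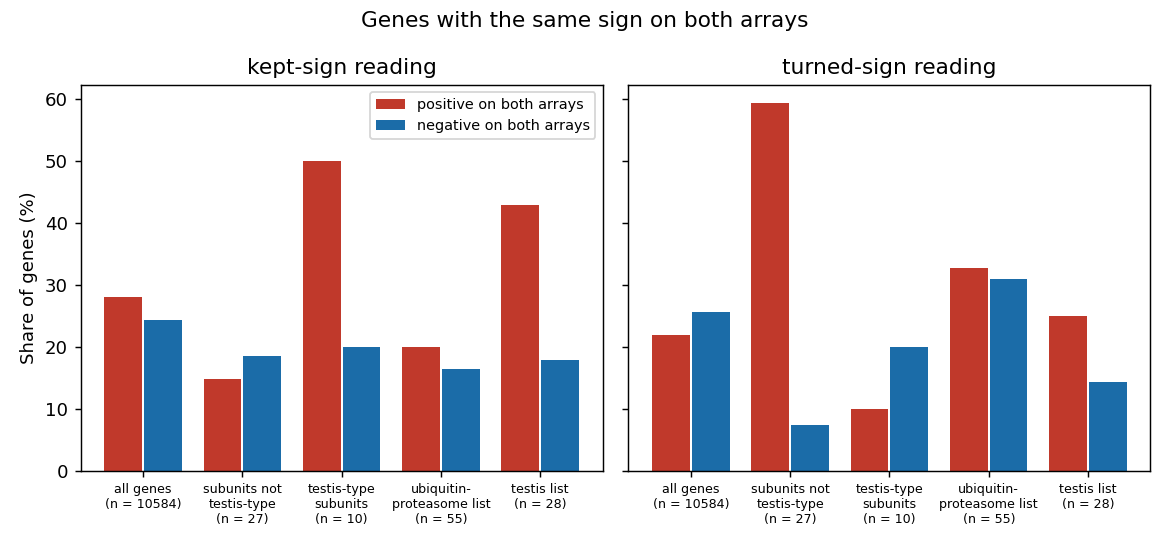
Share of genes (vertical axis, %) positive (red) or negative (blue) on both arrays in the kept-sign reading (left) and the turned-sign reading (right), for all genes, the subunits that are not testis-type, the testis-type subunits and both lists, with the number of genes under each. Subunits that are not testis-type stand at 59.3% positive in the turned-sign reading, against 21.9% of all genes.

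As a description over genes, which share the arrays and are not independent, the values of the 27 subunits on replicate 1 and replicate 2 had Pearson's r = -0.397. Among them r was -0.101 over the 13 core genes and -0.569 over the 14 regulatory genes. Over the 10 testis-type genes r was 0.439, and over all 10584 genes it was 0.0148.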

How the data were processed

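The values are those the authors deposited, a log ratio for each spot of each array, of unstated log base, direction and centring. Image analysis and normalisation are not stated in the labels. Of 15744 spots, 1820 were blank on replicate 1 and 1718 on replicate 2, and 5 held the code -10000, treated as missing. The 960 spots at 40 unnamed positions that recur in 24 sub-grids were treated as controls and left out. Symbols came from the platform annotation, updated by gene ID through RefSeq's table. Probes were averaged per gene. The 12500 probes measured on both arrays were tested against 0 with lmFit and eBayes (limma 3.58.1, R 4.3.3), adjusted by Benjamini-Hochberg at 0.05. The fit was checked on data simulated from its own model. Only recovery of changes larger than any member mean was required there, so the check does not show that changes of the size seen here could be called. Tables and plots used Python 3.11.15, numpy 2.4.6, pandas 2.3.3 and matplotlib 3.10.9. Any member could be named, with its array values. From the other lists, the 3 genes positive and the 3 negative on both arrays with the largest smaller absolute value were named in each reading. Alternatives covered centring, scale, print blocks, probe averaging, missing values, the summary, the variance model and single arrays. The members and lists were chosen with earlier results of these data known. The number of arrays limits all precision.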

Additional observations from a re-analysis of the deposited data

How the results depend on the processing

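No member probe was called in either reading under any of the 7 alternatives of variance model, centring, scale, print blocks, averaging and missing values. In the kept-sign reading the core minus regulatory difference of 0.0483 was 0.0755 with the mean over genes and 0.0312 without testis-type subunits, an alternative added after the data were seen. Of the 27 subunits that were not testis-type, the number negative on both arrays in the turned-sign reading went from 2 to 1 with print-block medians removed and to 1 with each array centred, both added later. Single arrays gave a median of proteasome genes from -0.02 to 0.049 in the kept-sign reading and from 0.02 to 0.049 in the turned-sign reading. For core minus regulatory the range was 0.04 to 0.0565 and -0.04 to 0.0565, and for testis-type minus other subunits 0.099 to 0.268 and -0.268 to 0.099. The remaining alternatives moved no value by more than the SD of the arrays and no count by over 1.5 times. Both RNAs were on each array, so every log ratio is a comparison within an array, and the test against 0 used that pairing. The arrays form 1 group, so no other pairing was possible. With 2 arrays and no intensities, small differences and dim spots could not be judged.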
